A study of Mus musculus with 6 samples.

Results

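Glycosaminoglycans are long sugar chains that cells build on proteoglycan core proteins, and heparan sulfate and chondroitin sulfate are the main sulfated kinds in lung. The genes described here encode the enzymes that lay down the linker sugars shared by both chains, the polymerases that extend heparan sulfate, the polymerases and modifying enzymes of chondroitin and dermatan sulfate, and the proteins that supply the activated sugars and sulfate. The list holds 31 genes, chosen by name and function. Of these, 30 had a probe whose transcript accession a reference table assigns to the gene, and all 30 entered the test, among 32451 features (17516 named genes and otherwise unnamed probes). For Slc35b2, which carries activated sulfate into the Golgi, no probe was matched and no value is given. Each gene is represented by its brightest probe.

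Lung RNA came from 6 male C57BL6 mice, 10 weeks old, 1 array per mouse. All had gone 16 h without food and then received lipopolysaccharide (LPS), the endotoxin of the bacterial outer membrane, into the peritoneum at 20 mg/kg. In the antithrombin group, 3 mice were given recombinant antithrombin at 750 IU/kg at 3 h and 24 h after LPS. In the saline group, 3 mice were given saline at those times, and lungs of both groups were taken at 30 h. Both groups were thus endotoxaemic, and no lung without endotoxin was analysed here. Antithrombin, which blocks thrombin in plasma, attaches to heparan sulfate on the vessel wall, so the genes below make the class of sugar chain to which it binds. The labels name separate mice, so n counts mice.

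A chain begins when a xylosyltransferase puts xylose on a serine of the core protein. Galactosyltransferases and a glucuronyltransferase then complete the linker, and the next sugar decides the chain: N-acetylglucosamine starts heparan sulfate and N-acetylgalactosamine starts chondroitin sulfate. In dermatan sulfate an epimerase has turned part of the glucuronic acid of chondroitin into iduronic acid, and sulfotransferases set the sulfate pattern on which protein binding depends.

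The start-site sequences of the 3 members with the smallest p in each direction, among those with an entry in the sequence table, are given first. Their relation to the differences below was not tested. Each is the 250 bases before the RefSeq start, from assembly GRCm38.p6, on the strand of the gene. Capitals mark, on either strand, TATAAA as the TATA box and CCAAT as the box of that name. They also mark GGGCGG as the GC box, the word CCGGAAG as an ETS site, and CACGTG as an E-box. In B3galt6 they mark the copies of a repeated word, and no marked words overlap one another.
B3galt6 (higher, chr4:155992679-155992928, minus strand): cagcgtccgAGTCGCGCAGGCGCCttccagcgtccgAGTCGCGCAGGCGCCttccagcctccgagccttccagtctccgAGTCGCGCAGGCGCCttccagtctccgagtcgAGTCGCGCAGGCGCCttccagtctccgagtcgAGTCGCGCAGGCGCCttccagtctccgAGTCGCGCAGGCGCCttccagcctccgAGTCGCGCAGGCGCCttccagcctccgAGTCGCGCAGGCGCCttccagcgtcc
Dse (higher, chr10:34207236-34207485, minus strand): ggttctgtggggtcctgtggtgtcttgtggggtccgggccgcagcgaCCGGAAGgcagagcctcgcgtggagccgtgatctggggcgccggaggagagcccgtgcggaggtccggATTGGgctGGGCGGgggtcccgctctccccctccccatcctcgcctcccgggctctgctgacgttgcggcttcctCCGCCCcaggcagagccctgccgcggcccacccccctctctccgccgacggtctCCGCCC
B4galt7 (higher, chr13:55599646-55599895, plus strand): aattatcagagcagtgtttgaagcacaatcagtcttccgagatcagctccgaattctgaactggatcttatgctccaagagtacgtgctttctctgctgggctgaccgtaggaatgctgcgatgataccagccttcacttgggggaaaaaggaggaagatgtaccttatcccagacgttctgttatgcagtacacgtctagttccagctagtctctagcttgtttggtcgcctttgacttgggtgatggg
Ext2 (lower, chr2:93822569-93822818, minus strand): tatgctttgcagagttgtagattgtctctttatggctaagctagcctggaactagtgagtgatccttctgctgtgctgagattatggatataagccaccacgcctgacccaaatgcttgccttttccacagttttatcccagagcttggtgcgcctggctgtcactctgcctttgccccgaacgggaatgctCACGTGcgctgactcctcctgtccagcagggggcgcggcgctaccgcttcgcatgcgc
Xylt2 (lower, chr11:94677494-94677743, minus strand): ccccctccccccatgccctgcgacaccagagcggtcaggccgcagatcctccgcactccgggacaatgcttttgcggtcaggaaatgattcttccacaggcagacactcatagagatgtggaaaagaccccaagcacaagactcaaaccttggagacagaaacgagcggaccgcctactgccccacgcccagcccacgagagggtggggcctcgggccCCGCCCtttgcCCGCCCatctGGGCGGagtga
Chpf2 (lower, chr5:24586494-24586743, plus strand): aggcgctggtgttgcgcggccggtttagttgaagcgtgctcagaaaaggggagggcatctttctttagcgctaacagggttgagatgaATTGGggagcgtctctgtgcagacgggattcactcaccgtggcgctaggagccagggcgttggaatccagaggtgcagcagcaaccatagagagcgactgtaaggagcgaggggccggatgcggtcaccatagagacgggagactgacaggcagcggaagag

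The B3galt6 window is repetitive. It holds 8 copies of the 15-base word AGTCGCGCAGGCGCC, spaced 27 to 43 bases apart, and 0.63% of the 32851 start-site windows of the table hold a word of that length in as many copies. Dse and Xylt2 have 3 GC boxes each, Dse and Chpf2 have 1 CCAAT box each, Ext2 has 1 E-box and Dse has 1 ETS site, while B4galt7 holds none of these words. The table has a window for 25 of the 30 measured members and none for Xylt1, Ext1, Extl3, Chsy3 and Csgalnact1. Across those 25 windows 19 held a GC box, against 32.7% of all windows, 10 a CCAAT box (33.8%), 3 an ETS site (6.9%), 3 an E-box (6.0%) and 0 a TATA box (12.4%). The member windows were GC-rich, with a median of 65.6% against 52.4% over all windows. These matches describe letters and are not binding sites.

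Signal is given as log2 of the processed intensity relative to the 75th percentile of the same array, so a value of 0 is the level of that percentile, and levels are not compared between probes of different genes. A difference is the antithrombin mean minus the saline mean on that log2 scale, tested for all features together with limma. All 30 measured members were well above background on all 6 arrays. Over all features the median difference was -0.05, and 2 of 32451 (0.00616%) passed an adjusted p of 0.05. Of the 30 members, 0 passed (limma), and the smallest adjusted p was 0.151, for Ext2. At an unadjusted p under 0.05 there were 10 members (33.3%), 4 higher and 6 lower, where 21.6% of all features had such a p (8.73% higher and 12.9% lower). The 3 antithrombin mice lay beyond the 3 saline mice for 12 members (40%), against 28.8% of all features. In that count 4 were higher, where 10.7% of features were, and 8 lower, where 18.1% were. The difference was negative for 21 of the 30 members (70%) and for 57% of all features. With 0 adjusted calls, each difference below is a measured value and not a called change.

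**Figure D1:**
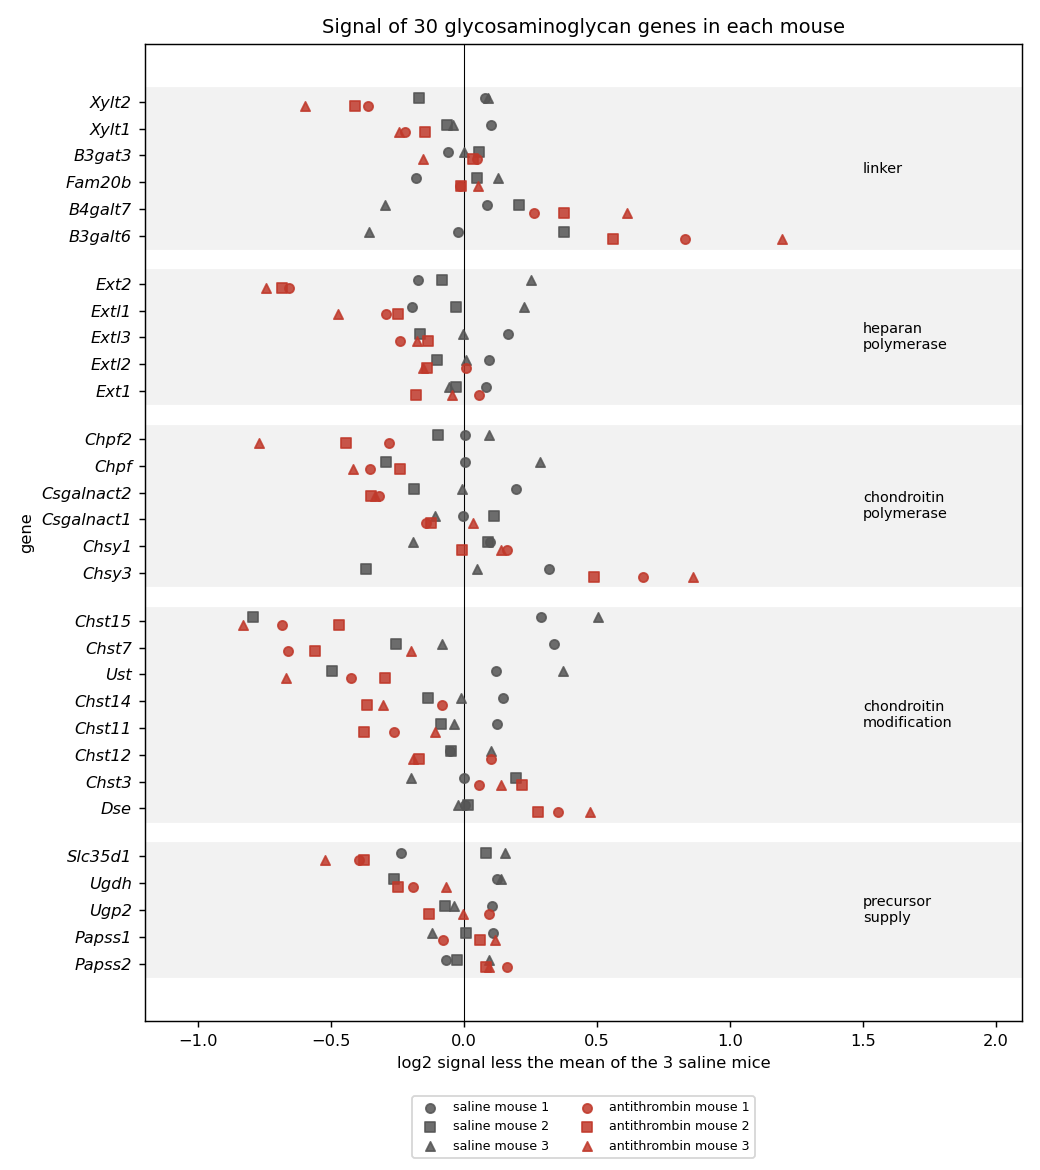
Log2 signal of each gene in each mouse, less the mean of the 3 saline mice (horizontal axis), with genes in rows by step; grey marks are saline and red marks antithrombin, and the marker shape gives the mouse number. The B3galt6 antithrombin mice reach farthest to the right, and saline mouse 2 (grey squares) lies among the antithrombin mice for Chst15 and Ust.

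In the linker the genes that act one after another differed in opposite directions. The xylosyltransferase Xylt2 was lower in every antithrombin mouse, whereas the galactosyltransferases B4galt7 and B3galt6, which add the first and the second galactose, were higher in every one. Fam20b and B3gat3, which act on the same linker, had differences of 0.01 and -0.02. The step therefore had 3 positive and 3 negative differences and a median of -0.01.

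B3galt6 had the largest difference of any member in the processing used, on the brightest probes. With normexp background correction it was 0.61, and Chst15 was larger in size at -0.65. Its log2 signal was -2.39, -2.0 and -2.73 in saline mice 1, 2 and 3 and -1.54, -1.81 and -1.18 in antithrombin mice 1, 2 and 3. The groups did not overlap, although saline mouse 2 came within 0.19 of the lowest antithrombin mouse. The difference was 0.86 (SE 0.24, 95% interval 0.30 to 1.42), or 1.82-fold, with an unadjusted p of 0.00854 and a limma adjusted p of 0.157. B4galt7 stood at -2.23, -2.11 and -2.62 in saline mice and at -2.06, -1.95 and -1.71 after antithrombin. Here too the nearest saline mouse was saline mouse 2, which lay 0.06 below the nearest antithrombin mouse. Its difference was 0.42 (SE 0.17; limma adjusted p = 0.222), or 1.34-fold, and 0.27 without saline mouse 3. Within each array, the log2 ratio of B3galt6 to B4galt7 was higher after antithrombin, at 0.39 ± 0.22 (SD, n = 3) against -0.05 ± 0.15 (SD, n = 3). The groups did not overlap, but only narrowly, with antithrombin mouse 2 at 0.135 and saline mouse 2 at 0.115. The difference of that ratio was 0.44, and 0.32 with normexp background correction.

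Xylt2, one of the enzymes that start every linker, had a log2 signal of 1.95, 1.70 and 1.96 in saline mice 1, 2 and 3. In antithrombin mice it was 1.51, 1.47 and 1.28, below every saline value. The difference was -0.45 (SE 0.13), 1.37-fold lower, with a limma adjusted p of 0.160. Its other probe gave -0.39 (SE 0.17) and also separated the groups, at -2.36 to -2.61 in saline and -2.69 to -3.20 after antithrombin. Of all members with more than 1 detected probe, Xylt2 and Extl1 were those whose probes each separated the groups in the same direction. Xylt1, the other xylosyltransferase, stood at -4.18, -4.35 and -4.32 after saline and at -4.50, -4.43 and -4.53 after antithrombin. The groups were separate for Xylt1 as well, by 0.08, and its difference of -0.20 (SE 0.10) was -0.09 with normexp background correction. The log2 ratio of Xylt2 to Xylt1 within arrays was 0.25 smaller after antithrombin (-0.25, groups not overlapping). That separation was narrow, with antithrombin mouse 1 at 6.02 and saline mouse 2 at 6.05.

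B3gat3, which adds the glucuronic acid that ends the linker, differed by -0.02 (SE 0.11, 95% interval -0.28 to 0.24). Its mean was 0.45 ± 0.11 (SD, n = 3) after antithrombin and 0.47 ± 0.06 (SD, n = 3) after saline. Fam20b, the kinase that phosphorylates the linker xylose, differed by 0.01 (SE 0.12, 95% interval -0.27 to 0.29), and its other probe by -0.09. The sign of these 2 members turned under some alternatives, so they have no direction here.

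All 5 measured members of the heparan polymerase group had a negative difference, as had 57% of all features. For Ext1 it was 0.0051 with normexp background correction. The median of the 5 was -0.18, and 2 of them, Ext2 and Extl1, separated the groups. Of all features 28.8% separated them (18.1% lower). Ext2, whose protein forms the heparan sulfate copolymerase together with Ext1, had the smallest p of all members. It stood at -4.51, -4.42 and -4.09 in saline mice and at -5.00, -5.03 and -5.08 after antithrombin. Every antithrombin mouse was below every saline mouse by at least 0.49, and the antithrombin values lay within 0.09 of one another. The difference was -0.70 (SE 0.14, 95% interval -1.02 to -0.37), 1.62-fold lower, with an unadjusted p of 0.00167. The Ext2 probe was dim, and with normexp background correction the difference was -0.28 (unadjusted p = 0.0231; limma adjusted p = 0.157).

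Ext1, the partner of Ext2, overlapped between groups, at 0.35, 0.24 and 0.21 in saline mice and 0.32, 0.09 and 0.22 after antithrombin. Its difference was -0.06 (SE 0.11, 95% interval -0.32 to 0.21). The log2 ratio of Ext2 to Ext1 within arrays was -4.61 ± 0.28 (SD, n = 3) after saline and -5.25 ± 0.12 (SD, n = 3) after antithrombin, with no overlap. A scaling that shifts a whole array cancels in such a ratio, but background correction does not: the difference of the ratio was -0.64, and -0.28 with normexp.

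Extl1, an exostosin-like transferase, was measured by 2 dim probes that gave differences of unlike size. The probe used stood at -3.90, -3.74 and -3.48 after saline and at -4.00, -3.96 and -4.18 after antithrombin, a difference of -0.34 (SE 0.14), which was -0.21 with normexp background correction and -0.23 without saline mouse 3. The other stood at -3.72, -4.07 and -3.31 against -4.48, -4.75 and -4.66, a difference of -0.93 (SE 0.20; limma adjusted p = 0.15 with all detected probes tested singly). Both probes separated the groups. Extl3, which adds the first N-acetylglucosamine and so commits the linker to heparan sulfate, differed by -0.18 (SE 0.12), or -0.10 without saline mouse 1, and Extl2, which can cap a phosphorylated linker, by -0.09 (SE 0.11). For Extl3 and Extl2 the groups overlapped.

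**Figure D2:**
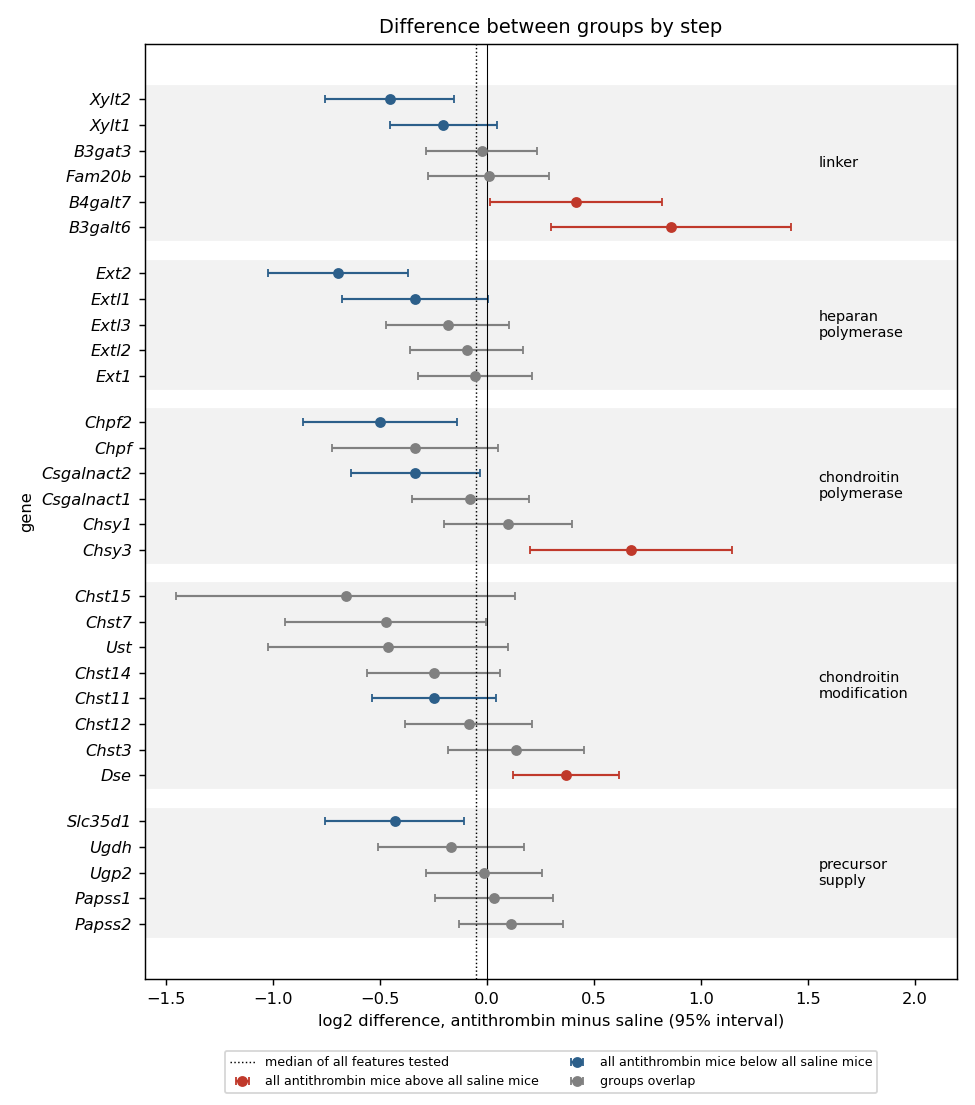
Log2 difference, antithrombin minus saline (horizontal axis), with the 95% interval of the limma fit, for the 30 measured genes in rows by step; red and blue points are genes whose groups did not overlap and grey points those that did, and the dotted line is the median of all features at -0.05. All 5 heparan polymerase genes lie left of 0 (Ext1 at 0.0051 with normexp background correction), while the linker and chondroitin groups hold genes on either side.

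Among the chondroitin polymerases 4 of 6 differences were negative, where 57% of all features were. The exceptions were the chondroitin synthases Chsy3 and Chsy1. Chsy3, a dim probe, stood at -4.35, -5.03 and -4.61 in saline mice and at -3.99, -4.18 and -3.80 after antithrombin. The groups did not overlap, and saline mouse 2 was the lowest of the 6. The difference was 0.67 (SE 0.20), 1.60-fold, with an unadjusted p of 0.0121 and a limma adjusted p of 0.165. With normexp background correction, which here adds an offset of 50 to every spot, it was 0.16 (limma, unadjusted p = 0.132). Such an offset by itself shrinks log2 differences of dim probes. The size thus depends on the processing, and the parts of background and offset cannot be told apart. Chsy1, the paralogue, was at 2.16, 2.15 and 1.87 after saline and 2.22, 2.05 and 2.2 after antithrombin. Those groups overlapped, with a difference of 0.10 (SE 0.13, 95% interval -0.20 to 0.40). The ratio of Chsy3 to Chsy1 within arrays separated the groups, at -6.14 ± 0.13 (SD, n = 3) after antithrombin and -6.72 ± 0.40 (SD, n = 3) after saline. The difference of that ratio was 0.58, and 0.052 with normexp background correction.

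Chpf2 and Chpf encode polymerising partners of the chondroitin synthases. Chpf2 stood at 1.05, 0.95 and 1.14 in saline mice and at 0.76, 0.60 and 0.27 after antithrombin. Antithrombin mouse 3 was the lowest, and the groups were separate. The difference was -0.50 (SE 0.15), 1.41-fold lower, with a limma adjusted p of 0.167, and it was -0.47 with normexp background correction. Chpf differed in the same direction, by -0.34 (SE 0.16), from 2.24 ± 0.29 (SD, n = 3) to 1.91 ± 0.09 (SD, n = 3), and by -0.19 without saline mouse 3. Its groups overlapped because saline mouse 2, at 1.95, lay below antithrombin mouse 2 at 2.00.

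Csgalnact2, which adds the first N-acetylgalactosamine and so commits the linker to chondroitin, had a log2 signal of 3.35, 2.97 and 3.15 after saline. After antithrombin it was 2.84, 2.81 and 2.82, a spread of 0.03 that lay below every saline value. The difference was -0.33 (SE 0.13), 1.26-fold lower (limma adjusted p = 0.204). Csgalnact1, which catalyses the same step, differed by -0.08 (SE 0.11, 95% interval -0.35 to 0.20), with overlapping groups. The ratio of Csgalnact2 to Csgalnact1 within arrays also overlapped between groups.

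In chondroitin modification 6 of 8 members had a negative difference, where 57% of all features had, and the median was -0.25. Dse, an epimerase that converts chondroitin to dermatan sulfate, went the other way. It stood at -1.23, -1.22 and -1.26 in saline mice, a range of 0.04, and at -0.88, -0.96 and -0.76 after antithrombin. Every antithrombin mouse was higher by at least 0.26. The difference was 0.37 (SE 0.10), 1.29-fold, with an unadjusted p of 0.0099 and a limma adjusted p of 0.161. Dsel, its paralogue, is named after its value was seen and differed by -0.09 (SE 0.105), with overlapping groups. Dse, B3galt6, Xylt2, Ext2 and Chpf2 were the 5 members with an unadjusted p under 0.05 under the processing used and under each of 17 other processing or sample choices. For Xylt2 this counts its brightest probe, since its other probe alone had an unadjusted p of 0.0551.

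Of the 7 other members of this group 6 had a negative difference. For 6 of the 7 the groups overlapped, Chst11 being the exception, where 28.8% of all features did not overlap. Chst7, a chondroitin 6-O-sulfotransferase, stood at -0.44, -1.04 and -0.87 after saline and at -1.44, -1.34 and -0.98 after antithrombin. It overlapped, since saline mouse 2 lay below antithrombin mouse 3, and its difference was -0.47 (SE 0.20; limma adjusted p = 0.229), or -0.30 without saline mouse 1. Chst3, which carries out the same reaction, was at -0.03, 0.16 and -0.24 after saline and at 0.02, 0.18 and 0.10 after antithrombin. The groups overlapped, and the difference was 0.14 (SE 0.13, 95% interval -0.18 to 0.46). The ratio of Chst7 to Chst3 overlapped between groups.

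Chst11, the main chondroitin 4-O-sulfotransferase, was -1.31, -1.53 and -1.48 in saline mice and -1.70, -1.81 and -1.55 after antithrombin. These groups were separate by 0.02, the difference was -0.25 (SE 0.12), and the other probe gave 0.18 with overlapping groups, so the probes disagree in sign. Chst12, which also sulfates the 4-O position, differed by -0.09 (SE 0.12). Chst14, which sulfates dermatan sulfate, differed by -0.25 (SE 0.13) with overlap.

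The differences of Chst15 and Ust were over 1.5 times larger in size without saline mouse 2 and over 1.5 times smaller without saline mouse 3. Chst15, which adds a further sulfate to form the chondroitin sulfate E unit, stood at 2.43, 1.34 and 2.64 in saline mice 1, 2 and 3 and at 1.45, 1.67 and 1.31 after antithrombin. Saline mouse 2 lay inside the antithrombin range and more than 1 log2 unit below the other saline mice. With all mice the difference was -0.66 (SE 0.33; limma adjusted p = 0.288), without saline mouse 2 it was -1.06 (limma adjusted p = 0.0286), and without saline mouse 3 it was -0.41 (limma adjusted p = 0.582). Ust, which sulfates uronic acid, had the same pattern, at -2.09, -2.71 and -1.84 after saline and -2.63, -2.51 and -2.88 after antithrombin. Its difference was -0.46 (SE 0.24; limma adjusted p = 0.291), -0.71 (limma adjusted p = 0.0481) without saline mouse 2 and -0.28 (limma adjusted p = 0.587) without saline mouse 3. With normexp background correction it was -0.27.

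In precursor supply the median difference was -0.01 over 5 measured members, and 4 of them lay between -0.17 and 0.11. Slc35d1, which carries UDP-glucuronic acid and UDP-N-acetylgalactosamine into the endoplasmic reticulum, was the exception. It stood at -0.09, 0.23 and 0.30 in saline mice and at -0.25, -0.23 and -0.38 after antithrombin. The groups were separate, with a difference of -0.43 (SE 0.14), 1.35-fold lower (limma adjusted p = 0.172). The other Slc35d1 probe gave 0.08 (SE 0.13) with overlapping groups, so the 2 probes differ in sign. Ugp2, which makes UDP-glucose, differed by -0.01 (SE 0.11), and Ugdh, which oxidises it to UDP-glucuronic acid, by -0.17 (SE 0.14), or -0.19 on its other probe and -0.30 to -0.10 on leaving out each mouse in turn. Papss1 and Papss2, the synthases of the activated sulfate donor, differed by 0.03 (SE 0.12) and 0.11 (SE 0.10), and the other Papss2 probe by -0.12. None of these 4 members separated the groups, and their intervals lay between -0.51 and 0.36.

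Over the 7 further detected probes of members, 3 had the sign of the probe used, those of Xylt2, Extl1 and Ugdh. The 4 that did not were those of Fam20b, Chst11, Papss2 and Slc35d1. Within-array ratios were formed for 9 pairs of related members, of which 4 separated the groups: Xylt2 to Xylt1, B3galt6 to B4galt7, Ext2 to Ext1 and Chsy3 to Chsy1, the last of which was near 0 (0.052) with normexp. Each of these 4 had an exact permutation p of 0.1 (two-sided; 0.225 adjusted over the 9 pairs), the smallest that 3 mice against 3 allow, so no pair could pass a threshold of 0.05. The other 5 had an exact permutation p between 0.2 and 0.5.

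**Figure D3:**
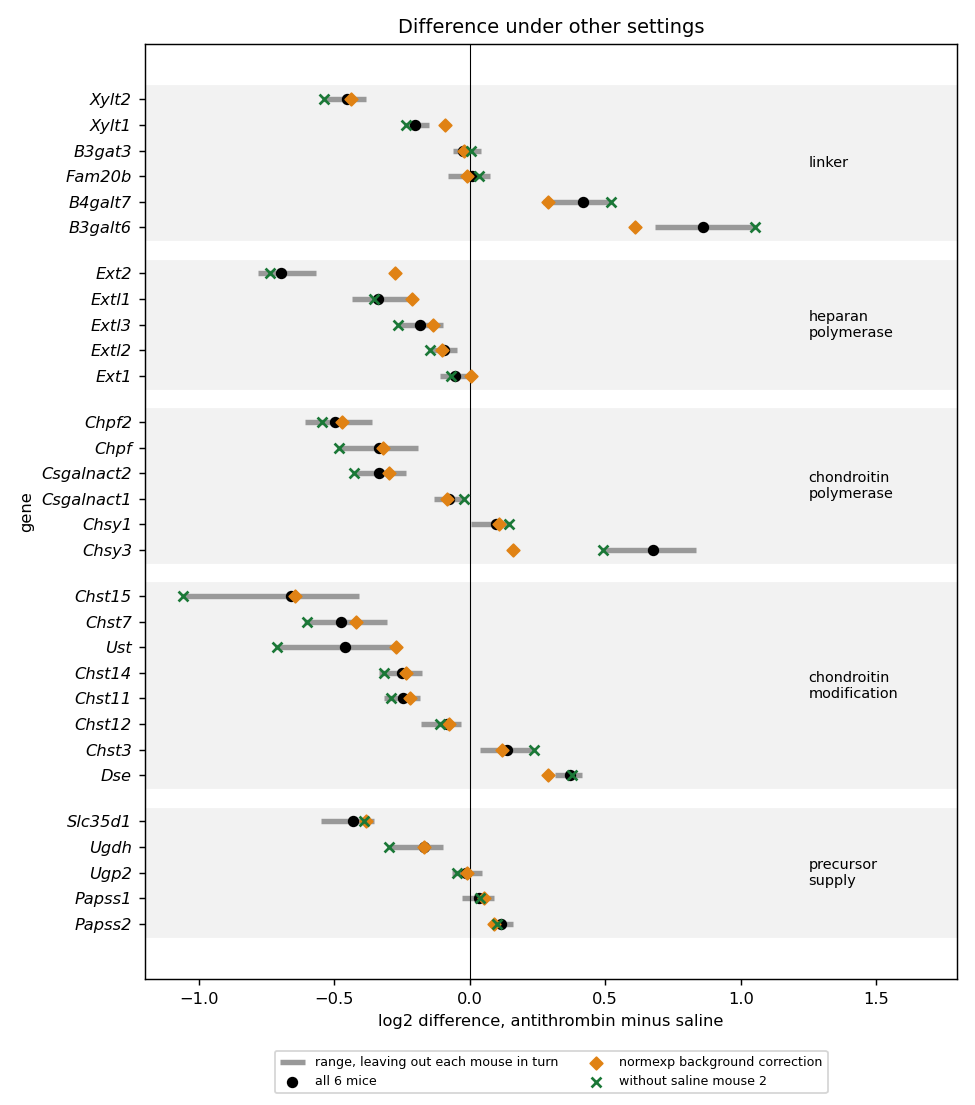
Log2 difference, antithrombin minus saline (horizontal axis), for each gene with all 6 mice (black), with normexp background correction (orange), without saline mouse 2 (green) and over the range from leaving out each mouse in turn (grey bars). The dim Ext2 and Chsy3 probes move towards 0 with normexp background correction, and Chst15 and Ust move away from 0 without saline mouse 2.

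Saline mouse 2 was nearer to the antithrombin mice than the other saline mice were over the whole array, at 7.86 on a first principal component (51.9% of variance) where the others lay at -48.3 and -62.4 and the antithrombin mice between 24.9 and 49.5. Among the members it lay nearer the antithrombin mean than the mean of the other saline mice for 18 of 30. Without it, 5 members passed the adjusted threshold (limma): B3galt6 (1.05, adjusted p = 0.043) was higher and Ext2 (-0.74, 0.0431), Xylt2 (-0.54, 0.0481), Chst15 and Ust were lower. In that setting 10.5% of all features passed (4.65% higher and 5.89% lower), so the 5 members are read against a far larger background than with all mice. Leaving out the saline mouse nearest the other group widens the gap by construction, and the 5 calls are no separate support. Without saline mouse 3 there were 6 members at an unadjusted p (limma) under 0.05 in place of 10. The share of all features at that p was 13% in place of 21.6%.

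Of 30 further genes of linker, precursor and sulfate metabolism 27 were tested and 0 passed the adjusted threshold (limma). Unadjusted p (limma) was under 0.05 for 4 higher and 3 lower genes, where 8.73% of all features were higher and 12.9% lower. The median difference was -0.09, against -0.05 over all features. Slc26a2, the sulfate transporter of the cell surface, differed by 0.42 (SE 0.12), and Gfpt1, which opens the hexosamine pathway to UDP-N-acetylglucosamine, by 0.41 (SE 0.12). Pgm3 (0.29) and Gnpnat1 (0.28), later enzymes of that pathway, were the other genes higher at that p and are named after their values were seen. The pathway did not go 1 way. Uap1 differed by -0.11, with groups that did not overlap. Gfpt2 differed by -0.09 and Uap1l1 by 0.23, both with overlap, and these too are named after their values were seen. Uxs1, which makes the UDP-xylose that Xylt1 and Xylt2 use, differed by -0.38 (SE 0.12). Chst8 (-1.32) and Slc26a1 (-0.50) were the other lower genes and are named on the same terms.

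The enzymes that modify heparan sulfate after polymerisation had 9 negative differences among 10 tested of 16 listed, where 57% of all features were negative. Their median was -0.17, with 0 at an unadjusted p under 0.05 and 0 adjusted calls (limma). Hs3st1, a 3-O-sulfotransferase whose product is the sulfate that high-affinity antithrombin binding needs, differed by -0.33 (SE 0.20), with groups that overlapped. Hs3st3a1, another 3-O-sulfotransferase, differed by -0.38 (SE 0.21), and the 6-O-sulfotransferase Hs6st2 by 0.29 (SE 0.16). In a list for glycosaminoglycan breakdown, not all of whose members are lysosomal enzymes, all 16 genes were tested. Unadjusted p was under 0.05 for 1 higher and 2 lower genes (8.73% and 12.9% of all features), 0 passed the adjustment (limma), and the median was 0.05. Hyal2 (-0.56, SE 0.17) and Sumf1 (-0.31, SE 0.12) were lower and Hexa (0.51, SE 0.21) higher.

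Lung tissue was recognisable on every array, with all 10 alveolar type 2 markers detected. In whole-tissue RNA, fewer cells of a type and less RNA per cell cannot be told apart. The lists below were set by name, their members were tested in the same fit, and 0 markers in any of them passed the adjusted threshold (limma). Fibroblast markers, of the cells that make much of the lung's chondroitin and dermatan sulfate, had 1 of 14 higher and 0 lower (unadjusted p under 0.05, where 8.73% of all features were higher and 12.9% lower). Their summed signal, in multiples of the 75th percentile of the array, was 241 to 334 in saline mice and 246 to 286 after antithrombin, so the groups overlapped. Smooth muscle and pericyte markers had 7 of 12 higher and 0 lower, with sums of 62.2 to 64.9 against 72.9 to 75.7. Endothelial markers had 1 of 12 higher and 2 lower, with sums of 326 to 376 after saline and 275 to 330 after antithrombin. Alveolar type 1 markers had 0 of 9 higher and 4 lower, with sums of 372 to 412 against 291 to 330 after antithrombin.

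Immune and cycling cell lists were counted by the same rule, an unadjusted p (limma) under 0.05. At that p 8.73% of all features were higher and 12.9% lower. Neutrophil markers had 5 of 11 higher and 0 lower, with sums of 930 to 1154 against 1088 to 1274. Monocyte and macrophage markers had 3 of 12 higher and 0 lower. Cell cycle genes had 10 of 12 higher, with sums of 15.1 to 21.4 against 24.6 to 30.7. Endoplasmic reticulum stress genes had 7 of 12 higher and 1 lower, with sums of 267 to 311 against 322 to 411. Listed markers without a matched probe were Rtkn2 (alveolar type 1), Ly6g (neutrophil), Trac (T cell), Igkc (plasma cell) and Muc16 (mesothelium). Among the other lists, the counts with such a p, higher first and lower second, were 1 and 0 of 10 for alveolar type 2, 1 and 0 of 10 for club, 3 and 0 of 10 for ciliated, 1 and 0 of 10 for alveolar macrophage, 3 and 0 of 9 for B and plasma cell, and 0 and 1 of 7 for mesothelial markers. T and NK cell, platelet, cardiac and adipocyte markers had 0 in either direction, which does not mean that they were level. Differences were positive for 6 of 11, 10 of 10, 10 of 10 and 7 of 8 of them, with medians of 0.06, 0.80, 0.58 and 0.36. Their spread was wide: the cardiac mean per mouse, less the saline average, was -1.195 to 0.84 after saline and -0.04 to 1.49 after antithrombin. The part of any of these lists in the members' differences was not tested.

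**Figure D4:**
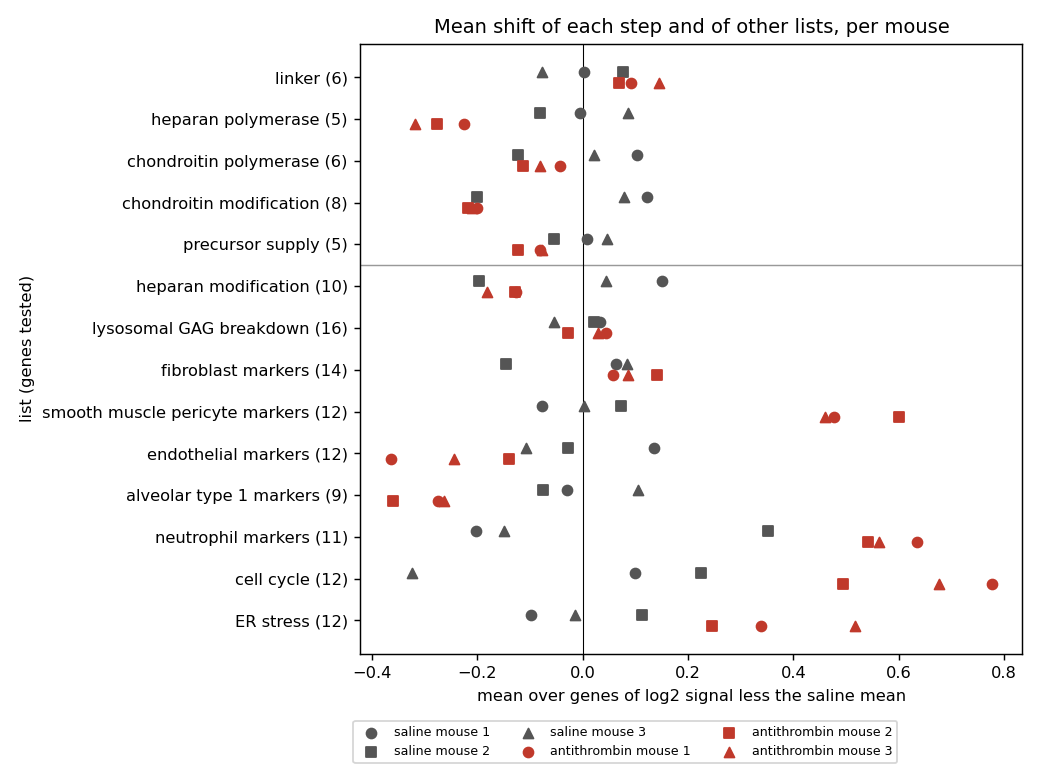
Mean deviation from the saline average over the genes of a list, on the log2 scale (horizontal axis), for each mouse, with the 5 steps above the line and other pathway and marker lists below it; grey is saline, red is antithrombin and the marker shape gives the mouse number. Antithrombin mice lie between -0.32 and -0.23 on the heparan polymerase genes and saline mice between -0.08 and 0.09, whereas saline mouse 2 lies at -0.20 on the chondroitin modification genes, at the edge of the antithrombin mice.

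Averaged within each mouse, the steps differed in how well they parted the groups. The heparan polymerase mean was -0.23, -0.28 and -0.32 in antithrombin mice 1, 2 and 3 and -0.00, -0.08 and 0.09 in saline mice. The largest differences in that step came from the dim Ext2 and Extl1 probes, at -0.70 and -0.34. With normexp background correction these were -0.28 and -0.21. Precursor supply also parted, narrowly, at -0.08, -0.12 and -0.08 after antithrombin against 0.01, -0.05 and 0.05. Of its 5 measured members only Slc35d1, at -0.43, separated the groups. The other Slc35d1 probe gave 0.08 with overlapping groups, so this is no shift of the whole step. In the linker saline mouse 2, at 0.08, lay within the antithrombin range of 0.07 to 0.14, and on the chondroitin polymerases, at -0.12, it was the lowest of the 6 mice. For chondroitin modification the antithrombin mice stood at -0.20, -0.22 and -0.21, saline mouse 2 at -0.20, and saline mice 1 and 3 at 0.12 and 0.08. Lists outside the pathway parted the groups as well. Alveolar type 1 markers, for example, stood at -0.27, -0.36 and -0.26 after antithrombin against -0.03, -0.07 and 0.10. All these means are descriptions and carry no test.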

How the data were processed

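RNA of 6 mouse lungs was hybridised to 1-colour Agilent arrays. The deposited intensity values are processed signals, background-subtracted and detrended by Feature Extraction, version 10.7.3.1 per the file headers (the submitters' processing notes name version 9.1). The authors' deposited value table holds log2 values of the same arrays, centred per probe on a scale no source states (array medians -0.0369 to 0.0763). After removal of each probe's mean offset and each array's median shift, 100% of its values lay within 0.01 of the log2 processed signals. The log2 intensity was taken relative to each array's 75th percentile over non-control probes, flagged outlier spots were dropped, and repeated spots averaged. Probes were named through RefSeq accessions; of 56605 probes 32994 got a gene and 23611 did not. A gene's brightest probe was kept where 3 or more arrays read it as well above background. Groups were compared with limma 3.58.1 in R 4.3.3, with Benjamini-Hochberg adjustment over 32451 features and a threshold of 0.05. The script was tested on simulated data.

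All 6 arrays lay on 1 slide with 1 scan date, 69.8% to 72.1% of probes were well above background and 0 were saturated. With 3 mice per group, that number limits the precision. Groups came from the sample titles. The members, gene lists and tests were chosen with earlier results of these data known. All members are named. Members with an unadjusted p under 0.05, with groups that did not overlap, or with a paralogue of opposite sign have their values given. Genes of the other pathway lists were named only if among the 3 smallest p. Exceptions are those said to be named after their values were seen. Genes of marker lists were counted, not named, apart from those unmatched. Promoter sequences are those of RefSeq, assembly GRCm38.p6. The arrays' own genome coordinates were not used. Other choices tried were normexp background correction (offset 50), quantile and median scaling, other filters on dim probes, the mean of probes, the deposited table, other variance models, array weights, blocks by mouse number or array row, and leaving out each mouse.

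Mouse numbers recur in both groups. The sample titles state no pairing, and the mice were treated as unpaired. Deviations from the group means of same-numbered mice correlated at -0.01, -0.16 and -0.28. Such deviations sum to 0 within a group, so these correlations depend on one another and cannot decide whether mice were paired.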

Additional observations from a re-analysis of the deposited data

How the results depend on the processing

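Over 17 other processing or sample choices, and 1 more added after the data were seen (each member's other detected probe, all probes tested singly), 490 of 517 member differences kept their sign and their side of the adjusted threshold, 6 passed it and 21 turned sign. The count of features past the adjusted threshold, 2 in the processing used, was 1 with normexp background correction, quantile normalisation, median scaling, no filter on dim probes, a filter on all 6 arrays, a trended and robust variance, or array row as a block. It was 1251 (3.86%) with array weights, where 1 member passed (Ext2). With mouse number as a replicate block, 0 features and 0 members passed. There 7 members had an unadjusted p (limma) under 0.05, as had 15.6% of all features. Leaving out 1 mouse gave 0 to 3421 features (0 to 10.5%) and 0 to 5 members past the threshold. It gave 6 to 14 members at an unadjusted p (limma) under 0.05, where 13% to 31.8% of all features had such a p. The heparan polymerase median was -0.25 with array weights and -0.26 to -0.10 on leaving out 1 mouse, and the precursor supply median -0.066 to 0.041. The cause of these shifts was not tested.

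Members whose sign turned had small differences or a second probe. Fam20b was -0.011 with normexp, -0.041 as the mean of its probes, -0.091 on its other probe and -0.081 to 0.074 on leaving out 1 mouse. Ext1 was 0.0051 with normexp and -0.11 to 0.0060 on leaving out 1 mouse. Ugp2 was 0.027 with quantile normalisation, 0.0057 with median scaling and -0.066 to 0.047 on leaving out 1 mouse. Papss2 was -0.0010 as the mean of its probes and -0.12 on its other probe. With array weights B3gat3 was 0.027 and Papss1 -0.011. On leaving out 1 mouse B3gat3 lay at -0.060 to 0.041 and Papss1 at -0.027 to 0.088. The other probes of Chst11 and Slc35d1 gave 0.18 and 0.08. The differences of Ext2, Chsy3, Xylt1, Extl1 and Ust were smaller by over 1.5 times with normexp. Its offset of 50 by itself shrinks log2 differences of dim probes, so these values do not measure the part of background alone.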
